A study of Mus musculus with 4 samples.

Results

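The 10 S100 genes *S100a1*, *S100a4*, *S100a6*, *S100a8*, *S100a9*, *S100a10*, *S100a11*, *S100a13*, *S100a16* and *S100b* were examined in the RNA-Seq values of sorted cochlear progenitors. They were chosen by gene symbol, and all 10 were found among the 23997 genes of the table. Lgr5+ progenitors (here Lgr5+ cells) were EGFP+ cells from Lgr5-EGFP-IRES-CreERT2 mice, and Lgr6+ progenitors (Lgr6+ cells) were EGFP+ cells from Lgr6-EGFP-IRES-CreERT2 mice. In both lines the reporter follows the promoter of the gene it is named after, the strain is labelled C57BL/6, and the cochleae were taken at postnatal day 3. The labels list 2 libraries per population, while the methods describe 3 replicates as fractions of 1 RNA sample from each sort, so such replicates would share an extraction. The table holds 1 combined FPKM, a fragment count scaled to transcript length and to the mapped fragments of the library, for each gene in each population. No per-library values were used, so no value below carries a replicate error and no difference was tested.

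S100 proteins are small calcium-binding proteins that carry a pair of EF-hand motifs and usually act as dimers. They change shape when calcium rises in the cell and then bind target proteins such as annexins, myosins and kinases, and some are also secreted and signal through receptors such as Ager and Tlr4. In the inner ear, S100 antibodies are used to mark hair cells (HCs) and supporting cells (SCs), and S100b is widely used as a marker of glia.

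The sorted cells were first checked by identity genes. *Sox2*, an SC transcription factor, had an FPKM of 139.6 in Lgr5+ cells and 54.8 in Lgr6+ cells. *Lgr5*, the gene that defines the first sort, had the higher FPKM in Lgr6+ cells, with 24.99 against 9.65, and *Lgr6* had 2.06 in Lgr5+ cells and 2.90 in Lgr6+ cells. The level of *Lgr5* therefore did not follow the names of the sorts. The paper describes Lgr6+ cells as a subset of the Lgr5+ progenitors, so the sorts are not separate cell types. *Hes5* and *Hey2*, SC transcription factors of the Notch pathway, had 505 and 19.02 in Lgr5+ cells, against 91.7 and 3.48 in Lgr6+ cells. The paper also reports both as higher in Lgr5+ progenitors. The columns of the table were used as they are named, and each direction below rests on those names. *Myo7a*, an HC gene, had an FPKM of 19.3 in Lgr5+ cells and 47.0 in Lgr6+ cells.

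Most of the S100 genes lie in one family cluster, and the DNA between some of them is short enough to show. *S100a1* is read from the minus strand of chromosome 3, from 90511034 to 90514330, and *S100a13* from the plus strand, from 90514435 to 90524581. Their starts face each other across 104 bases. This interval is shown because it lies directly upstream of 2 of the most abundant S100 genes. *S100a11*, from 93520496 to 93526288, was the most abundant S100 gene after *S100a1*, and its 250 upstream bases are shown beside it. The sequences are from RefSeq on GRCm38.p6 and are written on the plus strand, with each CG dinucleotide in capitals.
S100a1-S100a13 interval, chr3:90514331-90514434: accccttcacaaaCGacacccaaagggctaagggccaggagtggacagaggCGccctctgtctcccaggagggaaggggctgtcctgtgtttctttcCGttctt
S100a11 upstream, chr3:93520246-93520495: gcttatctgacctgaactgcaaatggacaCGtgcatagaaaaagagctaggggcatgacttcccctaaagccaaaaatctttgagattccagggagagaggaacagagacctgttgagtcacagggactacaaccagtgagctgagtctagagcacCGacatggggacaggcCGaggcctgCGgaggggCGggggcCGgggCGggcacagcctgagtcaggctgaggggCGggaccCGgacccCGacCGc

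For 9 of the 10 genes the RefSeq table holds the 250 bases upstream of at least 1 start, and *S100a10* has no entry. *S100a1*, *S100a13* and *S100a11*, which had the 3 highest FPKM values, held 8, 13 and 11 CG dinucleotides upstream. The other 6 genes held 3 or fewer, including *S100b* with 2 and both starts of *S100a16* with 1 and 3. Of all 32851 promoters in the table, 43.0% held 8 or more and 37.8% held 3 or fewer, so neither count is unusual. The *S100a1* and *S100a13* windows overlap and share bases, so these counts are not independent.

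The letters TATAAA, searched on both strands of the same 250 bases, were found upstream of 2 of the 9 genes, *S100a4* and *S100a8*, and of 12.4% of all promoters. Both are shown because they place the same letters at nearly the same distance from genes that differ in level. The 60 bases before each start are on the plus strand, with TATAAA in capitals.
S100a4 upstream, chr3:90603710-90603769: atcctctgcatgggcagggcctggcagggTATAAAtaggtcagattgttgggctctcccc
S100a8 upstream, chr3:90669011-90669070: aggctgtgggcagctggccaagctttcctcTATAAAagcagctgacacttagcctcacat
The match begins at position -31 before *S100a4* and at -30 before *S100a8*, where -1 is the last base before the start. *S100a4* was expressed in both populations, whereas *S100a8* was listed at 0 in both.

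The S100 genes spanned a wide range of expression, and their order was the same in both populations. *S100a1* was the highest, followed by *S100a11*, *S100a13*, *S100a10*, *S100b*, *S100a6*, *S100a16* and *S100a4*, and *S100a8* and *S100a9* were listed at 0 in both. The FPKM of *S100a1* was 486 times that of *S100a4* in Lgr5+ cells and 278 times in Lgr6+ cells. *S100b* and *S100a6* were the closest neighbours in this order, and without single libraries it is not known whether neighbours differ beyond their spread. FPKM is a value per length, which allows levels of different genes to be set side by side. For short transcripts, such as the 498 bases of *S100a4*, it depends more on the allowance made for fragment length. The effect of that allowance on this order was not tested.

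**Figure D1:**
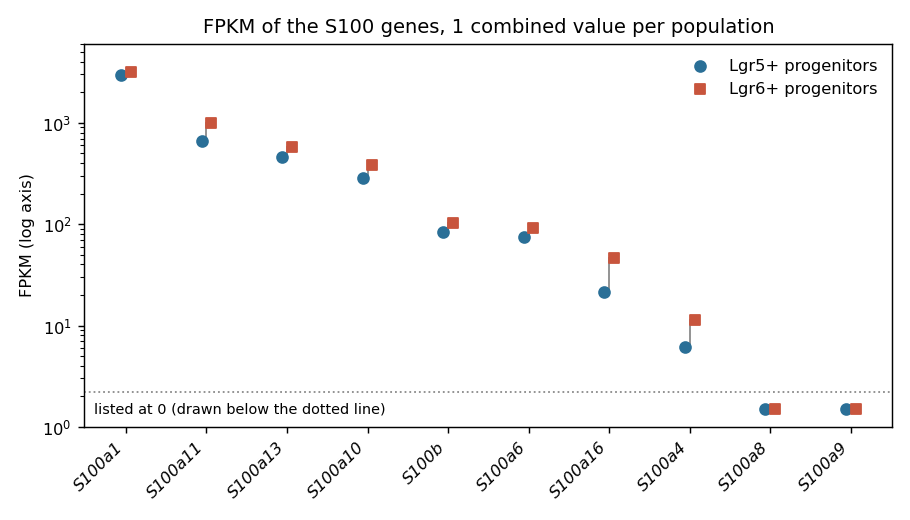
FPKM on a log axis for the 10 S100 genes in Lgr5+ cells (circles) and Lgr6+ cells (squares), ordered by level; each point is the authors' combined value of a population. The 8 expressed genes sit higher in Lgr6+ cells, from *S100a1* at 2959 and 3177 down to *S100a4* at 6.09 and 11.4, and *S100a8* and *S100a9* are listed at 0.

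All 8 expressed S100 genes had the higher FPKM in Lgr6+ cells. Among the 13436 genes that reached an FPKM of 1 in either population (the kept genes), 51.7% were higher in Lgr6+ cells, and among the 10013 genes that reached an FPKM of 5 in either population the share was 48.6%. Differences are on the log2(FPKM + 1) scale, Lgr6+ minus Lgr5+, on which the added 1 understates the difference of low genes. The median log2 difference was 0.38 over the 8 expressed S100 genes and 0.03 over all kept genes, whose middle part (25th to 75th percentile) ran from -0.54 to 0.71. The S100 differences ran from 0.10 to 1.09, so most of them lay inside that middle part.

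At a threshold of 1.5-fold, 3 of the 8 genes were higher in Lgr6+ cells, namely *S100a16*, *S100a4* and *S100a11*, and none was higher in Lgr5+ cells. Over all kept genes 28.5% passed toward Lgr6+ cells and 23.3% toward Lgr5+ cells, so the count of 3 was near what the table holds in general. When both populations were rescaled to the same sum of FPKM, the shares of all kept genes became 37.8% and 17.0%, and 5 of the 8 S100 genes passed. This rescaling moved the median of all kept genes from 0.03 to 0.28, and the S100 median lay 0.36 above it, against 0.34 without the rescaling. With quantile normalization 5 of the 8 genes passed, beside 25.5% of all kept genes, and the S100 median lay 0.65 above the median of all kept genes.

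**Figure D2:**
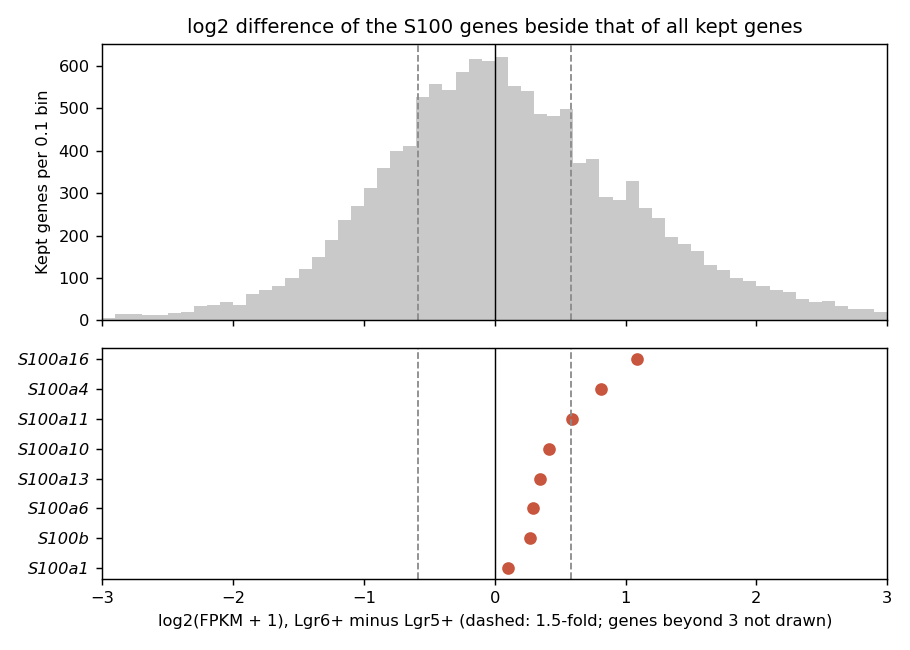
Upper part, number of kept genes per bin of 0.1 in log2 difference (Lgr6+ minus Lgr5+), and lower part, the 8 expressed S100 genes on the same axis; dashed lines mark 1.5-fold. The S100 points lie to the right of 0, from 0.10 for *S100a1* to 1.09 for *S100a16*, within the bulk of all kept genes.

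The plot of 5 settings shows how far each S100 difference depends on the scaling. *S100a16*, *S100a4* and *S100a11* passed 1.5-fold in all 5, and *S100a1*, *S100a6* and *S100b* passed in none. *S100a1* moved most, from a log2 difference of 0.10 to 0.57 with quantile normalization.

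**Figure D3:**
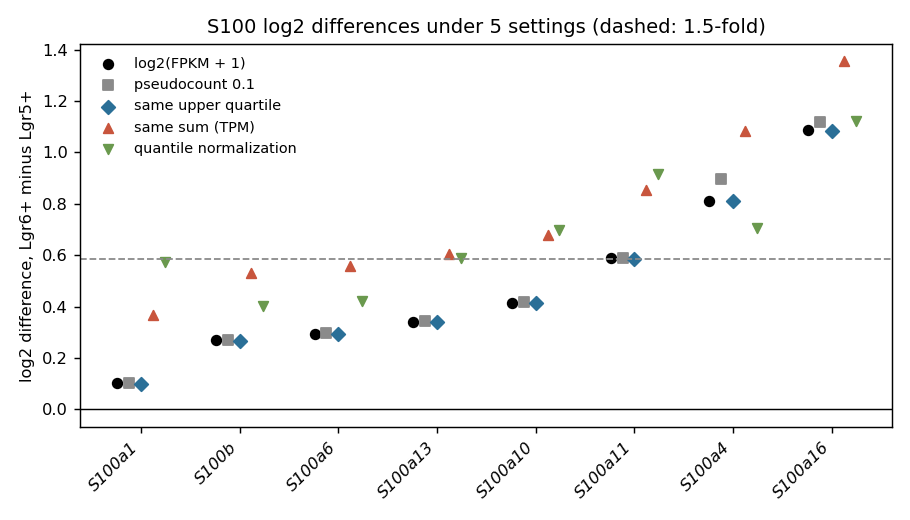
log2 difference (Lgr6+ minus Lgr5+) of the 8 expressed S100 genes with log2(FPKM + 1), a pseudocount of 0.1, the same upper quartile, the same sum and quantile normalization; the dashed line marks 1.5-fold. Every point lies above 0, and *S100a10* and *S100a13* pass the line with the same sum and with quantile normalization.

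Of the intracellular calcium sensors, *S100a1* was by far the most abundant. S100a1 is known from heart and skeletal muscle, where it regulates calcium release and reuptake. Its FPKM was 2959 in Lgr5+ cells and 3177 in Lgr6+ cells, which placed it 24th and 12th among all 23997 genes. The ratio of Lgr6+ to Lgr5+ was 1.07 and the log2 difference 0.10, the smallest of the 8 genes. *S100a1* alone made up 65.1% of the summed FPKM of the 10 genes in Lgr5+ cells and 59.0% in Lgr6+ cells.

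*S100a13*, whose protein takes part in the release of Fgf1 from cells, had an FPKM of 457 in Lgr5+ cells and 579.9 in Lgr6+ cells. The log2 difference was 0.34. The FPKM of its head-to-head neighbour *S100a1* was 6.47 times as high in Lgr5+ cells and 5.48 times as high in Lgr6+ cells. Their intervals do not overlap in the table, but the sources used here do not state that the counting used the strand.

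*S100a11* and *S100a10* are partners of annexins. S100a11 binds Anxa1, and S100a10, which has lost the ability to bind calcium, forms a stable complex with Anxa2 at the plasma membrane. *S100a11* had an FPKM of 656 in Lgr5+ cells and 988 in Lgr6+ cells, a ratio of 1.505. Its log2 difference of 0.589 lay just above the 1.5-fold threshold of 0.585, so this gene was the one nearest to the limit on the upper side. *S100a10*, on chromosome 3 from 93555117 to 93564645, had 287 and 384, with a log2 difference of 0.42, and was the nearest on the lower side. The rank among all genes went from 202 to 102 for *S100a11* and from 423 to 272 for *S100a10*.

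The annexin partners did not share one direction. *Anxa2*, the partner of S100a10, had an FPKM of 284 in Lgr5+ cells and 219.6 in Lgr6+ cells, a log2 difference of -0.37. *Anxa1*, the partner of S100a11, had 0.214 and 25.8, a log2 difference of 4.46. In a list of annexins with *Ahnak*, a large scaffold protein of the S100a10 and Anxa2 complex, 9 of 13 genes were kept. Of these, 5 were 1.5-fold or more higher in Lgr6+ cells and none was higher in Lgr5+ cells, with a median of 1.06. Besides *Anxa1* they were *Anxa3*, *Anxa4*, *Anxa5* and *Anxa7*, while *Ahnak* had an FPKM of 2.06 and 2.09. Over all kept genes, 28.5% were 1.5-fold or more higher in Lgr6+ cells and 23.3% in Lgr5+ cells.

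*S100a16*, a widely expressed member on chromosome 3 from 90541223 to 90543151, had the largest log2 difference of the 8 genes. Its FPKM was 21.2 in Lgr5+ cells and 46.1 in Lgr6+ cells, a ratio of 2.18 and a log2 difference of 1.09. Of all kept genes, 16.04% had a larger difference toward Lgr6+ cells. Without rescaling it was the only S100 gene of the 10 to pass a 2-fold threshold, and with the same sum *S100a4* also passed, with a log2 difference of 1.08.

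*S100a4*, whose protein binds non-muscle myosin and is known from fibroblasts and other motile cells, was the lowest of the 8 genes. It lies on chromosome 3 from 90603770 to 90606045. Its FPKM was 6.09 in Lgr5+ cells and 11.4 in Lgr6+ cells, a ratio of 1.88 and a log2 difference of 0.81. Low FPKM values fall on steps, and the size of the steps differed 3.20 times between the populations, with the finer steps in Lgr6+ cells. For the annotated transcript of 498 bases, less 200 bases for the fragment length, the *S100a4* values equal 14.1 steps in Lgr5+ cells and 84.8 in Lgr6+ cells. If a step is 1 fragment, the exact 95% Poisson interval runs from 7.65 to 23.5 fragments in the former and from 67.9 to 105 in the latter, which covers counting error only. The Lgr5+ value of *S100a4* would then rest on few fragments.

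*S100a6*, on chromosome 3 from 90612894 to 90614414, encodes a protein that binds Cacybp. It had an FPKM of 75.2 in Lgr5+ cells and 92.5 in Lgr6+ cells, a log2 difference of 0.29. *Cacybp* itself had 71.1 and 82.8, a log2 difference of 0.22. Neither differed by 1.5-fold.

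*S100b*, the only one of the 10 genes outside chromosome 3, lies on chromosome 10 from 76253836 to 76261319. Its FPKM was 84.6 in Lgr5+ cells and 102 in Lgr6+ cells, a log2 difference of 0.27. This difference was among the smaller ones of the 8 genes, above *S100a1* only.

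*S100a8* and *S100a9* encode the subunits of calprotectin, which neutrophils store and release. They lie on chromosome 3 from 90669071 to 90670034 and from 90692630 to 90695721. Both were listed at 0 in both populations. Because a listed 0 may also be an estimate that failed, only the listing is reported, although none of 76 ribosomal protein genes was at 0. Of 18 neutrophil marker genes in the table, 11 were also listed at 0 in both populations, among them *Ngp*, *Ltf*, *Mpo*, *Elane* and *Retnlg*. Of all 23997 genes, 9439 were at 0 in Lgr5+ cells and 8215 in Lgr6+ cells. The summed FPKM of this list was 24.4 in Lgr5+ cells and 12.5 in Lgr6+ cells. *Prtn3* and *Camp* made up most of the Lgr5+ sum, with 12.7 and 9.90. The table gives *Prtn3* an interval of 672333 bases on chromosome 10 that 48 genes share, *Elane* and the abundant *Bsg* among them, so their reads may not be separate. Of the 4 kept genes, *Prtn3* and *Camp* were 1.5-fold or more higher in Lgr5+ cells and *Mmp8* in Lgr6+ cells, and the list had a median of -0.48.

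Summed over the 10 genes, S100 expression was an FPKM of 4547 in Lgr5+ cells and 5380.1 in Lgr6+ cells, a ratio of 1.18. Without *S100a1* the sums were 1588 and 2203, a ratio of 1.39. As a share of all FPKM in the population, the 10 genes made up 0.603% and 0.857%. The sum over all genes was itself lower in Lgr6+ cells, at 83.3% of the Lgr5+ sum. Ranks do not depend on such a scaling but come from the same FPKM values. They were closer to the top in Lgr6+ cells for all 8 expressed genes. With quantile normalization, which sets values by rank, 49.6% of all kept genes were higher in Lgr6+ cells. S100 transcripts are short. Among the 1952 kept genes whose longest annotated transcript is under 1500 bases, 48.9% were higher in Lgr6+ cells, with a median log2 difference of -0.01. This limit also takes in genes with longer transcripts than most S100 genes, such as *S100a11* with 511 bases. The effect of transcript length on the S100 values was not tested.

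The remaining S100 family genes of the table were nearly all at or close to 0. *S100a2*, *S100a3*, *S100a5*, *S100a7a* and *S100z* were listed at 0 in both populations, and *S100a14* had an FPKM of 0.407 in Lgr5+ cells and 0.929 in Lgr6+ cells, below the filter. *S100g*, which encodes calbindin-D9k, a calcium carrier of the intestine, was listed at 0 in Lgr5+ cells and had 17.3 in Lgr6+ cells. The table gives *S100g* an interval of 945365 bases on chromosome X that 7 genes share, whereas the gene spans 2608 bases in RefSeq, so its reads may not be separate from those of overlapping genes. Of 6 genes of the fused S100 type, which carry an S100 domain in a long skin protein, 1 was kept. This was *Tchh*, with an FPKM of 2.47 in Lgr5+ cells and 0.00722 in Lgr6+ cells.

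Other proteins that meet S100 proteins in the cell were compared next. In the list of S100 binding targets 18 of 20 genes were kept, 4 of them 1.5-fold or more higher in Lgr6+ cells and 4 higher in Lgr5+ cells, with a median of -0.05. The former were *Stk38l*, *Myh9*, *Atp2a2* and *Fgf1*, and the latter were *Myh14*, *Trp53*, *Syt1* and *Plat*. *Myh9*, the non-muscle myosin bound by S100a4, had an FPKM of 2.25 and 4.71, whereas *Myh14* had 39.5 and 18.9. *Fgf1*, whose release S100a13 assists, had 0.673 and 1.93, and *Trp53*, a target of S100b, had 26.9 and 13.2. The most abundant genes of the list, *Aldoc*, *Capzb* and *Cacybp*, differed by less than 1.5-fold. Over all kept genes, 28.5% passed 1.5-fold toward Lgr6+ cells and 23.3% toward Lgr5+ cells.

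Among receptors for secreted S100 proteins, *Ager* had an FPKM of 33.1 in Lgr5+ cells and 20.6 in Lgr6+ cells, a log2 difference of -0.66. *Tlr4*, a receptor of S100a8 and S100a9, had 0.0709 and 0.0444. *Bsg*, a receptor of S100a9, was the most abundant, with 562 and 523. Of 6 genes in this list 3 were kept, 1 higher in each population and *Bsg* under 1.5-fold, with a median of -0.10. The gene higher in Lgr6+ cells was *Cd68*, with 2.41 and 7.52, which is also a macrophage marker.

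All 29 genes of a list of other EF-hand proteins were kept. Of these, 9 were 1.5-fold or more higher in Lgr6+ cells and 5 were higher in Lgr5+ cells, with a median of 0.09. The shares over all kept genes were 28.5% and 23.3%. *Cib2*, a calcium-binding protein of the HC transduction complex, had an FPKM of 776 in Lgr5+ cells and 1051 in Lgr6+ cells, and *Calml4* had 551 and 727. The largest differences of the list were those of *Ocm*, a calcium buffer of outer HCs, with 15.3 and 268, and *Calb1*, with 34.1 and 249.7. *Ncs1* differed most in the other direction, with 6.85 and 0.295. The log2 differences of the list ran from -2.60 to 4.05, against 0.10 to 1.09 for the 8 expressed S100 genes.

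**Figure D4:**
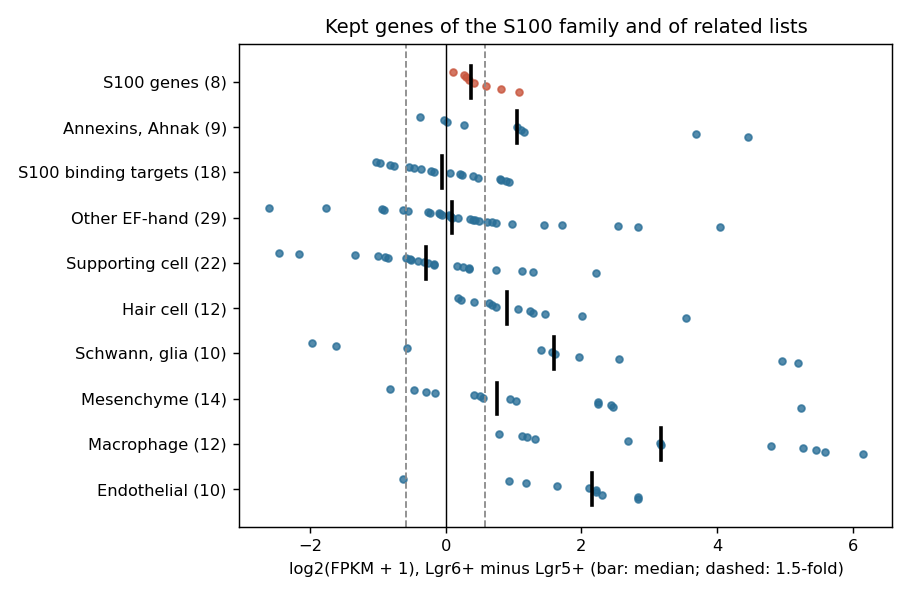
log2 difference (Lgr6+ minus Lgr5+) of each kept gene in the S100 family and in lists of related genes and cell type markers, with the number of kept genes in brackets; black bars are medians and dashed lines mark 1.5-fold. The S100 genes have a median of 0.38, against 1.06 for annexins with *Ahnak* and 0.09 for other EF-hand genes.

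Markers of other cell types also differed between the populations, and their part in the S100 values was not tested. In bulk samples, fewer cells of a type and less RNA per cell cannot be told apart. For each marker list here and below, the shares over all kept genes were 28.5% toward Lgr6+ cells and 23.3% toward Lgr5+ cells. HC markers were 1.5-fold or more higher in Lgr6+ cells for 9 of 12 kept genes and higher in Lgr5+ cells for none. Their summed FPKM was 1869.7 in Lgr5+ cells and 4252 in Lgr6+ cells, most of it from *Pcp4* alone, with 1337 and 3277. *Cib3* was the only 1 of the 13 at 0, in Lgr6+ cells. For SC markers, all 22 were kept, 4 were higher in Lgr6+ cells and 6 in Lgr5+ cells, with sums of 1979 and 1329.8.

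Beside *S100b*, 7 of 10 kept Schwann cell and glial markers were 1.5-fold or more higher in Lgr6+ cells and 2 were higher in Lgr5+ cells, with sums of 551 and 1640.1. *Fabp7* alone made up most of both sums, with an FPKM of 446 in Lgr5+ cells and 1370 in Lgr6+ cells. The 2 genes higher in Lgr5+ cells were *Egr2*, with 62.5 and 19.7, and *Mag*, with 3.08 and 0.0434. *Mog*, a myelin gene, was listed at 0 in both populations. Beside *S100a4*, *S100a6* and *S100a11*, which many mesenchymal and myeloid cells express, 7 of 14 kept mesenchymal markers were higher in Lgr6+ cells and 1 was higher in Lgr5+ cells, with sums of 367 and 709.8. *Otos*, an otic fibrocyte gene, had 5.598 and 248, and without it the sums were 361 and 461. *Lum*, the gene higher in Lgr5+ cells, had 179 and 101. *Dcn* had 91.8 and 74.9, which is under 1.5-fold. All 12 kept macrophage markers were higher in Lgr6+ cells, with sums of 26.0 and 321. *C1qb*, *C1qc*, *Tyrobp*, *Csf1r* and *Aif1* were at 0 in Lgr5+ cells, and *Ptprc*, a marker of all leukocytes, was at 0 in Lgr5+ cells and 0.00814 in Lgr6+ cells. Of 10 endothelial markers, 9 were higher in Lgr6+ cells and 1, *Tie1*, in Lgr5+ cells, with sums of 34.5 and 178.6.

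The S100 genes of chromosome 3 form a group of 12 genes from 90511034 to 90695721 and a group of 2 genes, *S100a11* and *S100a10*, from 93520496 to 93564645, with 2.82 Mb between them. Of the 14 genes, 7 were kept and 6 were listed at 0 in both populations. Among all 23997 genes, 9439 were at 0 in Lgr5+ cells and 8215 in Lgr6+ cells. Kept S100 genes and those listed at 0 were interleaved, since *S100a5* lies between *S100a4* and *S100a6*, and *S100a2* and *S100a3* lie between *S100a16* and *S100a4*. The stretch between the groups holds 55 other genes of the table, mostly skin barrier genes, of which 48 were at 0 in both populations and 2 were kept, *Lor* and *Tchh*.

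The neighbours of the cluster did not all share the direction of the S100 genes. In the cluster and 250 kb on each side, 10 other genes were kept, of which 2 were 1.5-fold or more higher in Lgr6+ cells and 6 were higher in Lgr5+ cells, with a median of -0.87. Over all kept genes the shares were 28.5% toward Lgr6+ cells and 23.3% toward Lgr5+ cells. Apart from *Lor* and *Tchh*, which lie between the S100 groups, the kept neighbours all lie before *S100a1*. The neighbours with the largest differences were *Tchh* at -1.78, *Lor* at -1.48 and *Crtc2* at -1.26 on the log2 scale. *Chtop*, the gene next to *S100a1*, had an FPKM of 51.5 in Lgr5+ cells and 56.9 in Lgr6+ cells. The 2 neighbours higher in Lgr6+ cells were *Snapin* and *Ints3*, and the table gives *Snapin* the same interval as *Ilf2*, so their reads may not be separate.

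**Figure D5:**
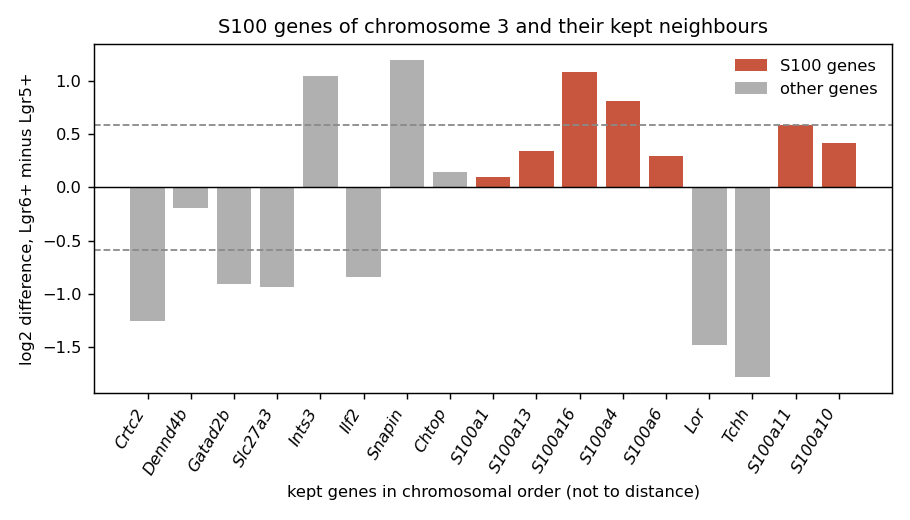
log2 difference (Lgr6+ minus Lgr5+) of the kept S100 genes of chromosome 3 and of the other kept genes in the cluster and its flanks, in chromosomal order and not to distance; dashed lines mark 1.5-fold. The 7 S100 bars point up, from 0.10 to 1.09, while the other genes point in both directions, from -1.78 for *Tchh* to 1.199 for *Snapin*.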

How the data were processed

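The authors trimmed reads with Trimmomatic, mapped them with TopHat, annotated them with RefGene and calculated FPKM with Cufflinks; versions are not given in the sources used here. Each FPKM that the authors deposited is 1 combined value per population, and libraries were made with the SMART-Seq v4 kit. The labels name mm10 and the paper mm9. Of 22497 symbols, 98.8% of the deposited intervals overlapped the RefSeq gene on GRCm38, and 1 was added to their starts. The fold change, p-value and q-value columns of the authors' comparison were not used. Depth of single libraries is not known.

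Genes that reached an FPKM of 1 in either population were kept. The log2 difference used a pseudocount of 1, and genes past 1.5-fold were counted without a test. The members and lists were chosen with earlier results of these data known. All 10 S100 genes are named, with the other family genes, fixed partners and identity genes, and in each list the 3 kept genes with the largest difference and the 3 with the highest FPKM; genes beyond this rule (such as those making up counts of 5 or fewer, and members at 0) were chosen after their values were seen, and some genes under the rule are not reported here. Alternatives were another pseudocount, 3 filters, 3 scalings and a 2-fold threshold. The software was Python 3.11.15 with matplotlib 3.10.9, scipy 1.17.1, pandas 2.3.3 and numpy 2.4.6.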

Additional observations from a re-analysis of the deposited data

How the results depend on the processing

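All 8 expressed S100 genes were higher in Lgr6+ cells under each of the 8 alternatives, and none was 1.5-fold higher in Lgr5+ cells under any. The 3 filters and the 2-fold threshold do not alter a single-gene difference, and another pseudocount cannot change its sign. Of the 3 scalings, the same sum could only raise these differences, because total FPKM was smaller in Lgr6+ cells. Quantile normalization goes by rank, and all 8 ranks were already closer to the top in Lgr6+ cells, so it could not reverse them. Only the same upper quartile was free to change a direction, and it moved *S100a1* from 0.1026 to 0.1008. The unchanged direction is therefore little evidence beyond the main values. The number that passed 1.5-fold was 3, and it became 5 with the same sum of FPKM and 5 with quantile normalization, where *S100a10* and *S100a13* passed as well. Of all kept genes, 37.8% and 25.5% passed toward Lgr6+ cells in these settings. With a 2-fold threshold it was 1, against 18.2% of all kept genes. The median log2 difference of 0.38 became 0.64 with the same sum and 0.65 with quantile normalization, where the median of all kept genes was 0.28 and -0.01. These settings move *S100a1* from 0.10 to 0.37 and 0.57. Of the single-gene values, 15 moved by more than 0.1 and 41 did not, and no sign changed. The 41 include the values under the 3 filters, which could not move. No paired analysis was possible because the table holds 1 combined value per population, and leaving out replicates was not run for the same reason. The depth of single libraries is not known.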

Other observations

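The lists for blood and nerve cells differed as follows. Of 7 erythroid genes 5 were kept, and 4 of them, *Hbb-bs*, *Hbb-bt*, *Hba-a1* and *Hba-a2*, were 1.5-fold or more higher in Lgr5+ cells, with none higher in Lgr6+ cells. The summed FPKM of this list was 630.0 in Lgr5+ cells and 108 in Lgr6+ cells. All 9 neuronal genes were kept, 3 higher in Lgr6+ cells and 2 higher in Lgr5+ cells, with sums of 126 and 145.5. *Snap25* had an FPKM of 7.63 and 53.4, and *Gap43* had 20.3 and 2.19. Their part in the S100 values was not tested.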
